A study of Mus musculus with 12 samples.

Results

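The subject is the set of T cell receptor (TCR) beta chains whose complementarity-determining region 3 (CDR3) carries a cysteine in its middle. The CDR3 is the junction of the V, D and J segments and runs here from the conserved cysteine at the end of V to the phenylalanine of J. A clonotype, one distinct CDR3 nucleotide sequence in a library, was counted as a central cysteine clonotype when it was productive (in frame and without a stop codon) and held a cysteine anywhere from residue 5 to the fifth residue from the end. Of 93537 productive clonotypes summed over 12 libraries, 3001 met this rule (3.21%), and they held 3299 of 1622417 productive unique molecular identifiers (UMIs, the tags that count cDNA molecules; 0.203%). These 3001 entries were 2995 distinct nucleotide sequences and 2980 distinct amino acid sequences.

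The libraries came from C57BL/6 CD4+ T cells recovered from mesenteric lymph node (mLN) and spleen. Naive cells had been transferred 6 weeks earlier into Rag2-/- hosts to induce T cell transfer colitis. These hosts have no mature T or B cells of their own. Donors were either PRKAA1fl/fl mice, called WT, or PRKAA1fl/fl mice with CD4-Cre, called KO, so both genotypes carried the floxed allele of Prkaa1, which encodes the AMPKα1 subunit, and in KO the Cre was driven by the Cd4 promoter, which acts in developing T cells and not in CD4+ T cells alone. An mLN and a spleen library came from each of 3 WT mice (replicates 1, 3 and 4) and 3 KO mice (replicates 1, 2 and 3), which makes 4 groups of 3 libraries; genotype and number in the labels tie the organs of a mouse together. Totals ranged from 2488 to 493287 UMIs per library. Libraries differed in the share of their 1-UMI clonotypes whose last 9 CDR3 nucleotides were unusual for their J segment: 2.42% to 5.85% in 5 libraries (WT replicate 1 and KO replicate 1, both organs, and KO replicate 3 mLN) and 26.1% to 38.3% in the other 7. The terms few unusual J ends and many unusual J ends refer to these sets below. The split crosses genotype and organ. The methods give an age of 6 to 8 weeks for mice in general.

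The middle of the beta chain CDR3 forms the loop that lies over the peptide presented by the MHC molecule. It is built where V, D and J are joined, by trimming of the segments and addition of untemplated nucleotides, so a central cysteine is seldom encoded by a segment itself. T cells with a cysteine at this place are known for strong reactivity to self peptides during thymic selection, where many are deleted or diverted to unconventional lineages, and the residue is known to be rare in conventional CD4+ T cells.

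Only 3 central cysteine clonotypes reached 10 UMIs in any library, and they are shown first because they had the largest counts. The capitals mark the codon of the central cysteine, and each sequence runs from the first to the last base of the CDR3.
TRBV14/TRBJ1-5, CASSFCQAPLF: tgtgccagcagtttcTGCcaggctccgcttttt
TRBV4/TRBJ1-2, 16 residues: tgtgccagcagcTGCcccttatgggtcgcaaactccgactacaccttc
TRBV15/TRBJ2-5, 15 residues: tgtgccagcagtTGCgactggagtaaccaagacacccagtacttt
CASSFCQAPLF had 166 UMIs in the spleen (0.0402% of productive UMIs, Wilson 95% confidence interval 0.0345 to 0.0468%) and 52 in the mLN (0.0559%, 0.0426 to 0.0733%) of WT replicate 4. The TRBV4/TRBJ1-2 clonotype had 26 UMIs in the spleen (0.246%, 0.168 to 0.360%) and 10 in the mLN (0.0875%, 0.0476 to 0.161%) of WT replicate 1, where it ranked 63 and 185 among the clonotypes. The TRBV15/TRBJ2-5 clonotype, which the naming rule did not select and which was picked after its value was seen, had 11 UMIs in WT replicate 3 spleen (0.00236%). All 3 came from WT mice, and in each the central cysteine codon lay partly inside the V or J alignment and partly outside it. The largest count of a central cysteine clonotype in a KO library was 4 UMIs. Productive clonotypes of 10 or more UMIs of any kind numbered 164 to 1762 per WT library and 48 to 1065 per KO library. A set of 3 CDR3s cannot show a genotype difference. The first 2 of these CDR3s also appeared at 1 UMI in other WT mice: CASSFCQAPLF in WT replicate 3 mLN, and the TRBV4/TRBJ1-2 sequence in the spleens of WT replicates 3 and 4. Among other productive clonotypes of 10 or more UMIs, 1094 of 6292 (17.4%) had their nucleotide sequence in another mouse.

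The remaining leading clonotypes were at or near the smallest count a library can hold. The one with the highest mean share over organs is shown for each mouse whose leader is not above, to make clear what such sequences look like.
WT replicate 3, TRBV19/TRBJ2-7, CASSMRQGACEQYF: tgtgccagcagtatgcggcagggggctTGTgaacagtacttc
KO replicate 1, TRBV2/TRBJ2-4, 21 residues: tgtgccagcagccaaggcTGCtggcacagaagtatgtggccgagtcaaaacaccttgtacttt
KO replicate 2, TRBV13-1/TRBJ1-3, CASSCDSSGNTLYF: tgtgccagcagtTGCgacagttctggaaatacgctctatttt
KO replicate 3, TRBV14/TRBJ2-5, 15 residues: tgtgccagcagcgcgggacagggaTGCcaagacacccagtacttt
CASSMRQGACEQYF had 2 UMIs in mLN and 0 in spleen, and it shared that count with a TRBV15/TRBJ2-1 clonotype of the same mouse. By mean share they stood above the TRBV15/TRBJ2-5 clonotype shown before, which had 11 UMIs (0.00236%) in the larger spleen library. In the smaller mLN library 2 UMIs were 0.00310%. The KO replicate 1 sequence was 1 of 3 central cysteine clonotypes in that mouse, each at 1 UMI in spleen; the next listed was a 15-residue TRBV5/TRBJ1-4 sequence. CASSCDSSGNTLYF had 3 UMIs in spleen and 0 in mLN. After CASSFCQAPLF, WT replicate 4 had only 1-UMI sequences at the next place in mLN, 243 of them tied, of which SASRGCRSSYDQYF (TRBV13-1/TRBJ2-7) comes first in the order of the list. The KO replicate 3 sequence led its mouse only because its single-UMI entry fell in the smallest library, where 1 UMI is 0.0419% of the productive total, and it was at 0 in the spleen, which allows up to 0.00143% (3 counts). Intervals and these limits cover counting error only.

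Of the 2 most abundant sequences of each mouse, 4 differed by 1 nucleotide from a CDR3 of at least 10 UMIs in the same library. The larger CDR3s are shown with the codon that differs in capitals, to be read against the cysteine codon of the smaller one.
larger CDR3 beside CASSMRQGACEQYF: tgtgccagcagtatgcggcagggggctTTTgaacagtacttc
larger CDR3 beside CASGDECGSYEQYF: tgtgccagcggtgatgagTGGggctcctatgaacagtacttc
larger CDR3 of KO replicate 3, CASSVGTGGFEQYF: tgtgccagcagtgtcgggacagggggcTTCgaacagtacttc
larger CDR3 beside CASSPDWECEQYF: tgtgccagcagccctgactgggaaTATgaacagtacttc
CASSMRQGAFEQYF had 42 UMIs in the mLN of WT replicate 3, where the cysteine form had 2. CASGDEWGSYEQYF had 31 UMIs in the mLN of KO replicate 2, against 2 for the cysteine form. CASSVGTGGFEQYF had 69 UMIs in the spleen of KO replicate 3, against 4. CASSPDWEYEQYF had 19 UMIs in the spleen of WT replicate 1, against 1. The larger forms carried phenylalanine, tryptophan or tyrosine, aromatic residues whose codons are 1 base from a cysteine codon. A larger form in the same mouse was also found for the 15-residue TRBV15/TRBJ2-1 clonotype of WT replicate 3 (22 UMIs in spleen) and for the leading sequence of KO replicate 3 (988 UMIs in spleen), in both cases in the organ where the cysteine form was not seen.

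Central cysteine clonotypes were mostly single molecules. Of the 3001 entries, 2971 (99%) had 1 UMI, 30 had 2 or more and 5 had 10 or more. In the 7 libraries with many unusual J ends, they made up 4.22% of clonotypes of 1 UMI (2964 of 70238; 95% interval 4.07 to 4.37%). Their share was 0.406% of clonotypes of 2 UMIs (17 of 4185), 0.123% of those of 3 to 9 (8 of 6502), 0.0362% of those of 10 to 99 (2 of 5518) and 0.0459% of those of 100 or more (1 of 2180). The fall from the first class to the next was present in every one of the 7 libraries, with 2.98% to 4.95% at 1 UMI and 0 to 0.443% at 2 to 9 UMIs. In the 5 libraries with few unusual J ends, the share was 0.433% at 1 UMI (7 of 1615; 0.210 to 0.892%), 0% at 2 to 9 UMIs (0 of 2102; 0 to 0.182%) and 0.167% at 10 or more (2 of 1197; 0.0458 to 0.607%). The interval at 10 or more UMIs overlaps both others, and those at 1 and at 2 to 9 UMIs do not overlap when the 5 libraries are pooled.

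**Figure D1:**
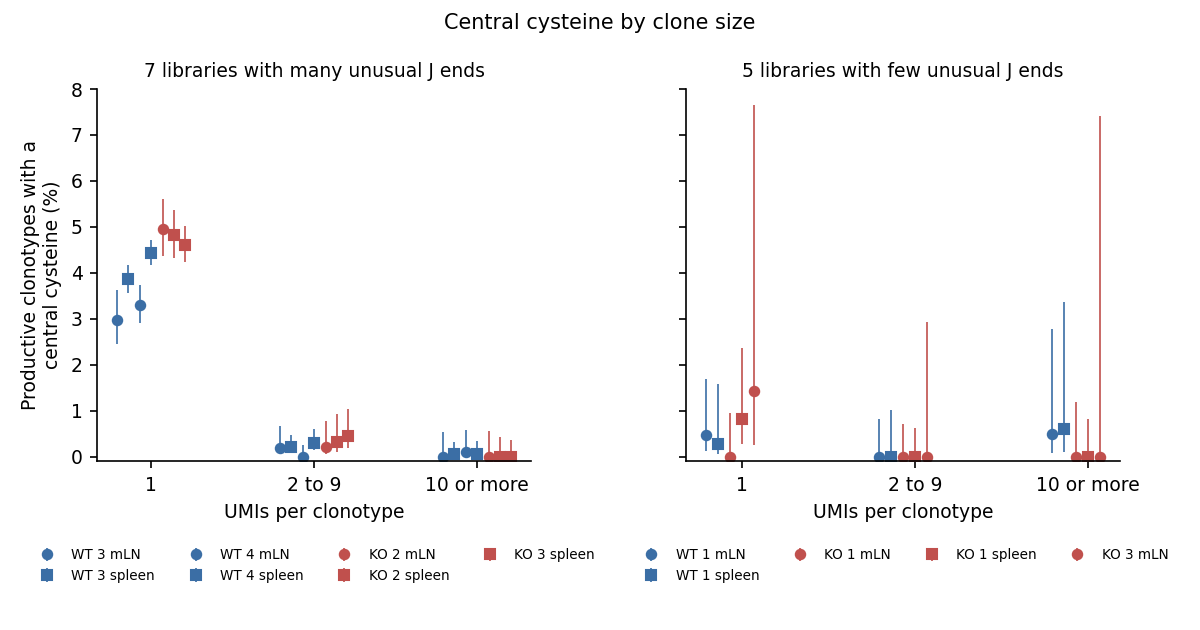
Share of productive clonotypes with a central cysteine (y axis, %) by the number of UMIs of the clonotype (x axis) in each library, WT in blue and KO in red, circles for mLN and squares for spleen, with Wilson 95% intervals. In the left panel every library is between 2.98% and 4.95% at 1 UMI and under 0.5% above it, and in the right panel the intervals of the classes overlap within each library.

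The clone size comparison was made within each library, as the mean UMIs per central cysteine clonotype against the mean per other productive clonotype. In WT mLN the means were 4 against 10.5 UMIs (replicate 1), 1.02 against 12.97 (replicate 3) and 1.21 against 9.63 (replicate 4). In WT spleen they were 13.5 against 11.9 (replicate 1), 1.03 against 24.5 (replicate 3) and 1.18 against 16.4 (replicate 4). WT replicate 1 spleen was the only library in which central cysteine clonotypes had the larger mean, and it held 2 of them, at 26 and 1 UMIs. In KO mLN the means were 1.01 against 19.1 in replicate 2 and 1 against 9.77 in replicate 3, and replicate 1 had no central cysteine clonotype among 1256, which allows a share of up to 0.239%. In KO spleen they were 1 against 43.9 (replicate 1), 1.01 against 18.2 (replicate 2) and 1.01 against 16.6 (replicate 3).

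Averaged over the organs of a mouse, the log2 ratio of mean clone sizes was −3.57 ± 1.62 (SD, n = 6 mice) and was below 0 in 6 of 6 mice, from −5.46 in KO replicate 1 to −0.60 in WT replicate 1. A two-sided exact sign-flip test gave p = 0.03125, the smallest p that 6 mice allow, and 0.0625 after Benjamini-Hochberg adjustment over 8 comparisons of central cysteine with other clonotypes. The share of clonotypes with 1 UMI was 92.5% ± 16.7 for central cysteine and 57.6% ± 21.5 for other clonotypes (mean of mice, n = 6), higher in 6 of 6 mice by 34.9 percentage points ± 21.4 (p = 0.03125 by the exact sign-flip test, adjusted 0.0625). Within the 4 mice with libraries of many unusual J ends the log2 ratio was −3.94, and within the 3 mice with libraries of few it was −3.12 (exact sign-flip p = 0.125 and 0.25, the smallest that 4 and 3 mice allow). Adjusted p-values of this family cannot reach 0.05 unless most of its comparisons are at the smallest p.

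At the upper end, 1 central cysteine entry held 0.1% or more of its library's productive UMIs, the TRBV4/TRBJ1-2 clonotype of WT replicate 1 spleen. The share at or above this size was lower for central cysteine than for other clonotypes in 5 of 6 mice, with a mean difference of −6.17 percentage points ± 12.7 (SD), which was within the spread between mice (exact sign-flip p = 0.28125, adjusted 0.375). The difference in this share was −9.11 without WT replicate 1 and −1.56 without KO replicate 3. It was −10.3 with the window narrowed by 1 residue at each side and −12.7 in CDR3s of 13 to 15 residues (exact sign-flip p = 0.03125 for both, adjusted 0.05 and 0.0547), and −22.9 after drawing down to 2488 UMIs (exact sign-flip p = 0.0625, adjusted 0.1). At that depth 0.1% is only a few UMIs, so the cut no longer picks large clones alone. The same holds in the full KO replicate 3 mLN library of 2386 productive UMIs, where 57.0% of other clonotypes passed. The difference in that mouse was −29.2.

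The position of cysteine among residues was read by placing each of the 20 amino acids in the same window. In the 7 libraries with many unusual J ends, the share of 1-UMI clonotypes with a cysteine was 108 times the share of clonotypes of 10 or more UMIs (4.22% against 0.0390%). Lysine came next with a ratio of 2.89 (10.9% against 3.77%), followed by methionine with 1.60 and histidine with 1.59, and the remaining 16 residues lay between 0.815 (leucine) and 1.42 (valine). Cysteine was the residue with the lowest share of UMIs in 12 of 12 libraries and had the lowest ratio of mean clone sizes (clonotypes with the residue against those without it) in 9 of the 11 libraries that held one, both organs of WT replicate 1 being the exceptions. In the 5 libraries with few unusual J ends the same ratio of shares was 2.59 for cysteine, resting on 7 and 2 clonotypes.

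**Figure D2:**
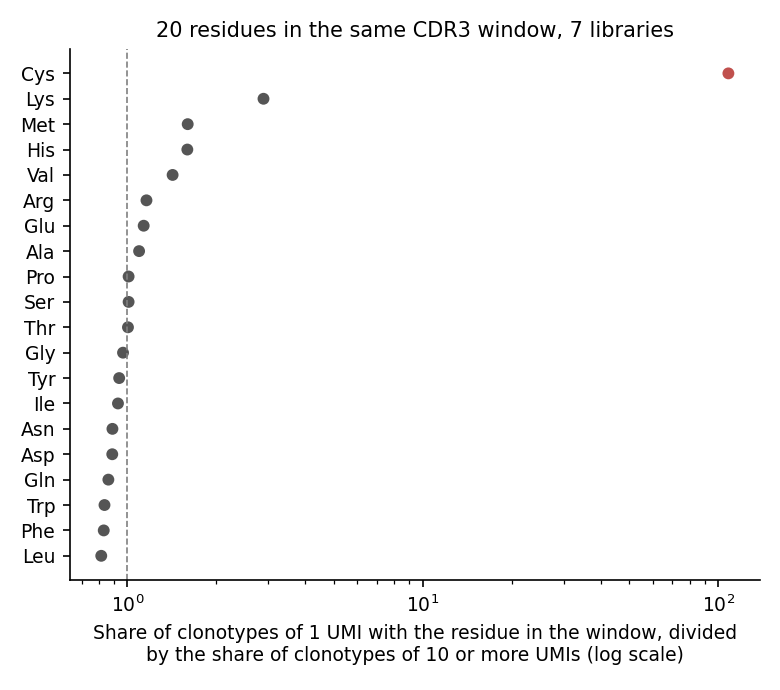
For each residue in the window from residue 5 to the fifth from the end, the share of 1-UMI clonotypes that hold it divided by the share of clonotypes of 10 or more UMIs (x axis, log scale), over the 7 libraries with many unusual J ends. Cysteine (red) is at 108, a value that rests on 3 entries of 10 or more UMIs, and the other 19 residues are between 0.815 and 2.89. The dashed line marks equal shares.

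In-frame CDR3s with a stop codon cannot form a receptor, and the same window was read in them. In the 7 libraries with many unusual J ends, 306 of 6898 such CDR3s of 1 UMI had a cysteine in the window (4.44%, 3.98 to 4.95%), beside 4.22% (4.07 to 4.37%) of productive 1-UMI clonotypes. Among stop-codon CDR3s of 2 or more UMIs, 4 of 158 had one (2.53%, 0.989 to 6.33%), beside 28 of 18385 productive clonotypes of that size (0.152%, 0.105 to 0.220%). Over all sizes, the cysteine share of productive minus that of stop-codon CDR3s was −0.62 percentage points ± 0.724 (SD, n = 6 mice), lower in 4 of 6 mice, which was within the spread (exact sign-flip p = 0.125, adjusted 0.2). In the 4 mice with libraries of many unusual J ends it was lower in each, by a mean of 1.02 percentage points.

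The 3001 CDR3s held 3081 central cysteines, 1 in 97.4% of them, 2 in 74 and 3 in 3. Of these cysteines 77.7% were at residues 5 to 8 and 79.4% within 2 residues of the middle of the CDR3. The rule admits none outside residue 5 to the fifth from the end, so a place near the middle is largely fixed by the rule. Counted from the end, the seventh residue held most (921, or 29.9%), then the eighth (15.7%). The codon was TGT in 53.4% and TGC in 46.6%. By the alignments, 39.4% of the codons lay wholly outside V, D and J, 30.8% lay partly in V or J and 6.91% partly in D, while 13.7% lay wholly in J, 8.54% in D and 0.584% in V. Cysteines inside a J alignment were set against the commonest residue at that place in clonotypes of 10 or more UMIs with that J. That residue was serine in 50.1% and tyrosine in 27.4%, and for some none was assigned. With TRBJ2-7, where the residue 5 from the end was tyrosine in 67.2% of other clonotypes of 10 or more UMIs, 68 of 69 cysteines aligned at that residue used TGT.

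**Figure D3:**
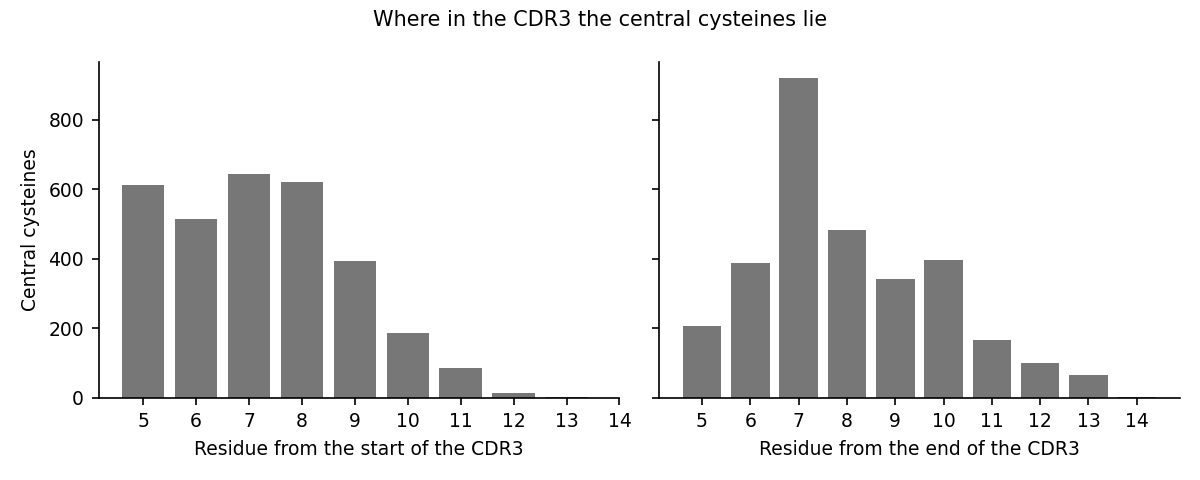
Number of central cysteines (y axis) at each residue counted from the start (left) and from the end (right) of the CDR3, over all 12 libraries, residues 5 to 14 shown. Residues 5 to 8 from the start hold 77.7% of them, and the seventh residue from the end holds 921. The rule admits none before residue 5 or after the fifth from the end.

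The rule's window widens with length, so longer CDR3s had more places for a cysteine. Among 1-UMI clonotypes of the 7 libraries with many unusual J ends, the share with a central cysteine went from 2.81% at 11 residues to 4.55% at 14 and 8.46% at 17, while the share per residue of window stayed between 0.582% and 0.993% from 10 to 17 residues. Mean length was 14.95 residues ± 0.996 for central cysteine and 13.8 ± 0.0349 for other clonotypes, a difference of 1.14 that the rule partly fixes and that had the same sign in each mouse (p = 0.03125 by exact sign-flips, adjusted 0.0625). The length difference was 0.41 within libraries of many unusual J ends and 1.998 within those of few, was largest in WT replicate 1 (2.63) and KO replicate 1 (2.21), which had 4 and 3 central cysteine clonotypes, and was 0.079 without clonotypes of 1 UMI (p = 0.9375 by exact sign-flips over 5 mice). The stretch of CDR3 outside the V and J alignments was 13.9 nucleotides ± 3.21 against 9.41 ± 0.438, longer in 6 of 6 mice by 4.49 ± 3.58 (p = 0.03125 by the exact sign-flip test, adjusted 0.0625). Since most central cysteine codons lie wholly or partly outside the alignments, the rule partly fixes this difference too. Within libraries of many unusual J ends the gap difference was 1.91 nucleotides, and within those of few, which held 9 central cysteine entries, 7.84. Without clonotypes of 1 UMI the gap difference was 1.28 (exact sign-flip p = 0.375 over 5 mice). At 1 UMI in the 7 libraries, gaps averaged 10.6 to 12.5 for central cysteine and 9.74 to 10.6 for other clonotypes, higher in 7 of 7. Other clonotypes of 2 or more UMIs averaged 8.82 to 9.05. At the border of the rule, a cysteine at residue 4, just outside, was found in 1483 clonotypes (99.5% of 1 UMI, largest 17 UMIs), and at residue 5, just inside, in 612 (98.5%, largest 26). At the other border, the fifth residue from the end held 206 and the fourth 5.

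V and J segments, the germline pieces that set the flanks of the CDR3, were compared as numbers of clonotypes per mouse. Of 23 V segments tested with edgeR's quasi-likelihood test, 2 were called at an adjusted p under 0.05, both higher in central cysteine clonotypes (8.7% of segments tested). TRBV4 made up 10.5% of central cysteine clonotypes in WT replicate 3, 6.54% in WT replicate 4, 5.94% in KO replicate 2 and 5.50% in KO replicate 3, against 4.92%, 2.98%, 4.02% and 3.44% of other clonotypes, and it was 1 of 4 in WT replicate 1 and 0 of 3 in KO replicate 1. Its log2 fold change was 0.91 ± 0.17 (SE, edgeR adjusted p = 0.00328), and it was higher in 5 of 6 mice. TRBV14 had a log2 fold change of 0.89 ± 0.25 (edgeR adjusted p = 0.0396) but was higher in 3 of 6 mice; its share was 1.28%, 3.68%, 2.70% and 4.52% in the same 4 mice in that order, against 0.990%, 1.18%, 2.92% and 1.83%. The TRBV14 call was lost under DESeq2 (adjusted p = 0.316) and without any 1 of WT replicates 1 and 4 and KO replicates 1 and 3. Without clonotypes of 1 UMI, 0 V segments and 0 J segments were called, with 30 central cysteine entries left.

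Of 12 J segments tested, 2 were called (16.7%), 1 lower and 1 higher (8.33% each). TRBJ1-1 was lower in central cysteine clonotypes in each of the 4 mice with more than 4 of them, and was at 0 of 4 in WT replicate 1 and 0 of 3 in KO replicate 1, where so few cannot show a difference, with a log2 fold change of −0.76 ± 0.15 (SE, edgeR adjusted p = 3.74e-05). Its share was 8.83%, 7.11%, 8.63% and 5.89% in WT replicates 3 and 4 and KO replicates 2 and 3, against 10.9%, 14.3%, 13.2% and 12.97% of other clonotypes, and the ranges did not overlap in these 4 mice. TRBJ2-7 was called higher, with a log2 fold change of 0.39 ± 0.13 (SE, edgeR adjusted p = 0.0192) and a higher share in 5 of 6 mice (17.2% to 25.9% against 16.1% to 17.8% in the same 4). The TRBJ2-7 call was lost with TMM scaling (log2 fold change 0.27, edgeR adjusted p = 0.615), under DESeq2 (0.24, adjusted p = 0.545) and without any 1 of WT replicates 1 and 4 and KO replicates 2 and 3.

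Within segments, the cysteine sat at characteristic places. With TRBV4, 107 of 217 central cysteine entries (49.3%) had it at residue 5, the first residue of the window, and with TRBV17 48 of 89 (53.9%). With TRBV2 and TRBV5, the share at residue 5 was 5.36% and 6.02%, and residue 5 of their other clonotypes of 10 or more UMIs was glutamine in 70.7% and 67.0%. With TRBJ1-3, 139 of 244 entries (57.0%) had the cysteine at the seventh residue from the end, where other clonotypes of 10 or more UMIs had serine in 66.1%. With TRBJ1-1 the seventh residue held 18.9% and the sixth 26.9%. Which residues of a segment fall inside the window is set by the rule, so it may partly fix the V and J calls. The segment tests were not repeated with the narrower window.

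Against other 1-UMI clonotypes of the same 7 libraries, central cysteine clonotypes of 1 UMI had a like share of unusual J ends (27.6% to 39.9% against 25.5% to 37.7%, higher in 4 of 7 libraries), far above the 0.551% to 2.03% of other clonotypes of 2 or more UMIs. Their alignments carried a V or J mismatch in 80.5% to 86.3%, against 69.1% to 81.8% for other 1-UMI clonotypes and 11.9% to 15.1% for larger ones, and the share was higher in 7 of 7 libraries. A cysteine that replaces a J-encoded residue is itself such a mismatch, and 13.7% of all central cysteines lay wholly in J. The rule therefore partly fixes this difference. The first CDR3 residue was not cysteine in 15.3% to 19.96% against 11.4% to 16.2%, again higher in 7 of 7. The lowest base quality score of the CDR3 averaged 39.8 to 40 against 39.7 to 39.95. The share within 3 nucleotides of a CDR3 of the same length and library with at least 10 UMIs was 24.9% to 38.8%, lower in 7 of 7 libraries than the 38.1% to 48.3% of other 1-UMI clonotypes. The part of sequence errors in the 1-UMI class was not tested.

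A CDR3 at 1 nucleotide from a CDR3 with 10 or more times its UMIs was found for 0 to 3% of central cysteine clonotypes in the 9 libraries outside WT replicate 1 that held any, beside 0.410% to 4.86% of others. In WT replicate 1 it was 1 of 3 entries in mLN and 1 of 2 in spleen. The difference averaged 5.33 percentage points ± 17.1 (SD, n = 6 mice; exact sign-flip p = 1), was negative in 5 of 6 mice, and was −1.63 without WT replicate 1. It was 26.1 without clonotypes of 1 UMI and 30.0 with at least 3 UMIs (5 mice each), and 15.2 at 13 to 15 residues. Over all libraries 39 cysteines could be set against the residue of such a larger CDR3: phenylalanine in 11, glycine in 10, tryptophan in 9, serine in 5, tyrosine in 3 and arginine in 1.

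Sharing between organs was rare. Of 2998 central cysteine clonotypes counted once per mouse, 3 (0.1001%) were in both organs, beside 7337 of 83199 others (8.82%). Limited to clonotypes of at most 1 UMI in each organ, it was 1 of 2970 (0.0337%), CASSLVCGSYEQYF of KO replicate 2, beside 258 of 67236 (0.384%). For clonotypes of 10 or more UMIs in mLN, which could be seen again in spleen, 2 of 2 central cysteine clonotypes were found there, 1 each in WT replicates 1 and 4, beside 197 of 199 and 952 of 970 others in these mice, and with 2 mice the smallest p is 0.5. Between mice, 3 of 2980 central cysteine amino acid CDR3s (0.101%) were found in more than 1, beside 2339 of 77320 others (3.03%), some of which were in all 6: the 16-residue TRBV4/TRBJ1-2 sequence in 3 WT mice, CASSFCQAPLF in 2 WT mice, and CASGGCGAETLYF in WT replicate 4 and KO replicate 2. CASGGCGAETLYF was encoded by 2 different nucleotide sequences, with TRBV13-2 and with TRBV5, at 1 UMI each. The comparison between mice was not matched for clone size. Of central cysteine clonotypes 2970 of 2998 had at most 1 UMI in each organ, and of others 67236 of 83199.

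The question of genotype was whether loss of AMPKα1 changed how much of the repertoire these clonotypes took. Since rare clonotypes depend on depth, shares of clonotypes were compared after drawing each library down to 2488 UMIs. The spleens of WT replicates 1, 3 and 4 had shares of 0.275%, 0.446% and 0.863%, and those of KO replicates 1, 2 and 3 had 0.0529%, 0.718% and 0.776%. In mLN, WT had 0.231%, 0.495% and 0.827%, whereas KO had 0, 0.875% and 0.408%. The groups overlapped in both organs. The difference KO minus WT was −0.012 percentage points in spleen (0.515% ± 0.402 against 0.528% ± 0.302) and −0.0904 in mLN (0.428% ± 0.438 against 0.518% ± 0.299; mean ± SD, n = 3 mice each; exact permutation p = 1 and 0.8, adjusted 1 and 0.96, smallest possible p 0.1). Within libraries of many unusual J ends both differences were positive, 0.0927 in spleen (2 mice against 2) and 0.213 in mLN (1 against 2), and within those of few they were negative, −0.222 and −0.0274, with 1 or 2 libraries a group.

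The share of UMIs in central cysteine clonotypes, which does not hang on depth, was 0.255%, 0.134% and 0.280% in WT spleens and 0.00477%, 0.218% and 0.246% in KO spleens. In mLN it was 0.105%, 0.158% and 0.317% in WT, while KO had 0 (up to 0.0130%), 0.204% and 0.0419%. The means were 0.223% ± 0.0786 and 0.156% ± 0.132 in spleen and 0.193% ± 0.110 and 0.0820% ± 0.108 in mLN, WT and KO in that order (exact permutation p = 0.5 and 0.3, both 0.75 adjusted over 6 comparisons). In the full tables the log2 clone size ratio did not differ beyond its spread, at −2.72 ± 2.55 in WT and −4.55 ± 0.79 in KO spleen, and in mLN at −2.69 ± 1.17 for WT (n = 3) against −3.77 ± 0.68 for KO (n = 2; exact permutation p = 0.4 in each organ, both 0.75 adjusted). After drawing each library down to 2488 UMIs, which left 0.22 to 7.3 central cysteine clonotypes per draw in the 11 libraries that held any, the size ratio of each KO library was below that of each WT library in both organs. In spleen it was −2.53, −1.84 and −1.78 in KO against 0.013, −1.71 and −1.56 in WT (KO minus WT −0.97), and in mLN −2.04 and −3.29 in KO replicates 2 and 3 against −1.09, −1.69 and −1.31 (−1.30). The exact permutation p was 0.1 in each organ, the smallest possible, and 0.3 adjusted. Most central cysteine clonotypes had 1 UMI, so this ratio moves largely with the mean size of other clonotypes. That mean is larger where a draw holds fewer clonotypes. Draws held 418, 652 and 690 productive clonotypes in KO spleens, and 451, 723 and 749 in WT spleens, in replicate order. In mLN they held 573 and 245 in KO replicates 2 and 3, and 537, 727 and 881 in WT. The ratio does not measure central cysteine clonotypes alone. Without WT replicate 1, the full-table size ratio differed by −0.37 in spleen and −0.44 in mLN. In spleen the full-table UMI share and size ratio differed by 0.0250 percentage points and 0.079 on the log2 scale, KO higher, within libraries of many unusual J ends; within those of few, WT replicate 1 and KO replicate 1 alone differed by −0.251 and −5.64, KO lower. In mLN, within many and few unusual J ends in that order, the UMI share differed by −0.0334 and −0.0841 and the size ratio by −0.91 and −1.89.

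**Figure D4:**
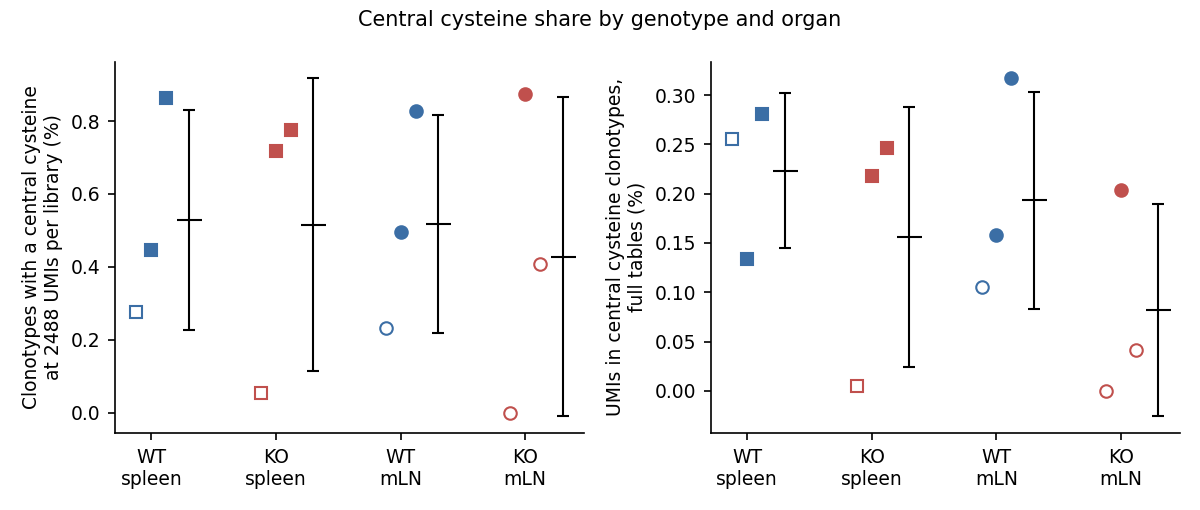
Central cysteine share of clonotypes after drawing 2488 UMIs per library (left, %) and share of productive UMIs in the full tables (right, %), by genotype and organ; each point is 1 mouse (WT blue, KO red), open for libraries with few unusual J ends, and bars are mean ± SD of 3. WT and KO points overlap in each panel, and in each of the 4 groups the point or points with few unusual J ends are lowest except in WT spleen on the right.

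Between the organs of a mouse, the share of clonotypes was 0.473% ± 0.339 in mLN and 0.522% ± 0.318 in spleen, higher in mLN in 2 of 6 mice (difference −0.049 percentage points ± 0.175, exact sign-flip p = 0.625). The share of UMIs was 0.138% ± 0.115 and 0.190% ± 0.104, higher in mLN in 2 of 6 mice (difference −0.052 ± 0.1003, exact sign-flip p = 0.40625; both 0.625 adjusted). Within the mice whose organs both had many unusual J ends the differences were 0.0572 and 0.0159, and within those of few −0.0481 and −0.0776.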

How the data were processed

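RNA of CD4+ T cells was reverse transcribed by the authors from the TCR beta constant region with UMIs added at the 5′ end, sequenced on a MiSeq, clustered and error-corrected by UMI with MIGEC and aligned with MiXCR at default parameters. Tool versions, the read threshold per UMI and the segment reference are not given in the sources used here. The deposited clone count per clonotype is a whole number and was read as UMIs, which the tables do not name; the deposited clone fraction (count over library total) was used for checks only, and the deposited lowest CDR3 quality score as a readout. Sequence errors left by that processing could not be separated from true clonotypes here.

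Entries with the same CDR3 nucleotides were summed, and V and J are those of the best hit. For genotype and organ, shares of clonotypes are means of 50 seeded draws of 2488 UMIs; other values use the full tables of 2488 to 493287 UMIs. Genotypes were compared by exact permutation over 20 assignments of 6 mice, organs and clonotype kinds by exact sign-flip tests over 64 patterns, all two-sided, with Benjamini-Hochberg adjustment within families of 6, 2 and 8. Segments with at least 10 clonotypes in at least 3 columns (1 column of each kind per mouse) were tested with edgeR 4.0.16 (R 4.3.3), mouse as a block; DESeq2 1.42.0 was an alternative. On simulated segment counts, 78% of V and 97.5% of J segments changed 2-fold were recovered, and 0.431% and 1.25% of segments were called with no change made, over 20 simulations with 23 V and 12 J segments. Python 3.11.15 with scipy 1.17.1 was used.

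Named clonotypes are the 2 most abundant of each mouse by mean share over organs, the CDR3s found in most mice, and segments past the threshold; the sequence printed is that of the most abundant one, plus larger neighbors. Exceptions are stated. Members and lists were chosen with earlier results of these data known. Alternatives were no downsampling, downsampled sizes, mean log2 UMIs, minimum sizes, other clonotype definitions, merging close CDR3s, no unusual J ends, a narrower window, 13 to 15 residues, each kind of library, blocks, TMM, all segments and leaving out each mouse or the smallest library.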

Additional observations from a re-analysis of the deposited data

Results flagged for a closer look

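The share of clonotypes at 1 nucleotide from a CDR3 with 10 or more times their UMIs was, as central cysteine minus other, 40.1 percentage points in WT replicate 1 and between −2.09 and −0.58 in the other 5 mice. That mouse stood apart from the others by Dixon's gap test at the 95% level. Its libraries held 3 and 2 central cysteine entries, so 1 entry moves the share by 33.3 or 50 points. Chance alone gives such a gap in about 1 of 20 results, and 9 results over 6 mice were examined.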

How the results depend on the processing

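Of 350 values under alternatives, 293 kept direction and side of the threshold, 27 turned direction, none of the latter with an adjusted p under 0.05 on either side. Lower clone size and a higher 1-UMI share of central cysteine clonotypes kept direction in each of 19 and 16 alternatives, from −4.17 to −1.02 on the log2 scale and from 22.1 to 55.1 percentage points. The causes of the changes below were not tested. The spleen difference in clonotype share, KO minus WT, became 0.274 percentage points without downsampling, 0.0452 by amino acids, 0.0156 with close CDR3s merged, 0.0442 without unusual J ends, 0.0657 with the narrower window, 0.158 at 13 to 15 residues and 0.0927 within libraries of many unusual J ends. That of mLN became 0.0248 with the narrower window, 0.02495 at 13 to 15 residues and 0.213 within many unusual J ends. The spleen UMI share difference became 0.0176, 0.0247 and 0.0250 under these same 3 settings, and the spleen size ratio 0.079 within many unusual J ends. Leaving out 1 mouse gave −0.142 to 0.219 and −0.314 to 0.123 for clonotype share in spleen and mLN, −0.112 to 0.00882 for spleen UMI share, and −0.0898 to 0.0151 for mLN minus spleen, which was also 0.0151 without the smallest library; within many unusual J ends the organ differences were 0.0572 (clonotypes) and 0.0159 (UMIs). The 1-nucleotide neighbor difference was −1.55 within many unusual J ends and −1.63 to 6.81 with 1 mouse left out, and productive minus stop was 0.177 within few.

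The labels do not say whether WT and KO numbers 1 and 3 pair the mice, and they were not treated as pairs. Correlations of deviations in V usage were 0.169, −0.065, 0.336 and 0.162. Other pairs of mice were not compared, so these values cannot decide it. Blocking on the replicate number (replicate block), the spleen clonotype share difference was 0.0541, and the others kept their sign (−0.0691 spleen and −0.111 mLN UMI share, −0.159 mLN clonotype share, −2.55 spleen size ratio; smallest p 0.5). Without the block of the mouse, organ differences kept sign (permutation p = 0.810 and 0.420), 1 V segment in place of 2 was called, and 2 J segments were. DESeq2 called 1 V and 1 J segment, TMM 1 J segment, and without 1-UMI clonotypes 0 and 0 were called. Leaving out 1 mouse gave 1 to 3 V and 1 to 2 J calls. The TRBV4 and TRBJ1-1 calls were lost only without 1-UMI clonotypes. The few central cysteine clonotypes above 1 UMI, 30 in all, limit every statement on larger clones.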

Other observations

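In the 7 libraries with many unusual J ends, the share of 1-UMI clonotypes with a central cysteine was 4.95%, 4.82% and 4.61% in the KO libraries (replicate 2 mLN and spleen, replicate 3 spleen) and 2.98%, 3.86%, 3.30% and 4.43% in the WT libraries (replicates 3 and 4, mLN then spleen). The ranges did not overlap. This was noticed after the values were seen, comes from 2 mice a genotype and was not tested. The interval of WT replicate 4 spleen (4.17 to 4.71%) overlaps those of the 3 KO libraries. Over all clone sizes the cysteine ranges did overlap, with 3.74% in KO replicate 2 mLN and 3.75% in WT replicate 4 spleen. Ranges over all sizes were also apart for tryptophan (11.3% to 11.5% in KO, 8.83% to 10.7% in WT) and arginine (32.9% to 34.3% and 30.3% to 32.8%). With KO lower, they were apart for alanine (40.7% to 42.4% and 42.5% to 45.1%) and glutamine (32.35% to 33.41% and 33.44% to 37.53%). For the remaining residues, glycine and serine among them, they overlapped. Ranges that lie apart are therefore not particular to cysteine. Besides the 5 entries of 10 or more UMIs, the next largest central cysteine clonotype was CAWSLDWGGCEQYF (TRBV31/TRBJ2-7) with 7 UMIs in WT replicate 3 spleen, also named after its value was seen.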
